A study of Mus musculus with 14 samples.

Results

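The genes described are 10 members of the transforming growth factor beta (TGF-beta) pathway that act at or downstream of its receptors: the SMAD genes Smad2, Smad3, Smad4, Smad6 and Smad7, the corepressors Ski, Skil and Tgif1, and the membrane proteins Pmepa1 and Bambi. They were listed by name for their roles in the pathway, with earlier results of these data known, from the 48795 Ensembl genes of the count table, and all 10 passed the low-count filter that left 16408 genes for testing. RNA was sequenced from fibroblast cultures that had grown out of lung or dorsal skin pieces of male mice aged 8 to 10 weeks, kept unstimulated on plastic up to day 14. All libraries carry the strain label C57BL/6J. The groups were wild-type lung (5 libraries, numbered 1, 23, 3, 4 and 5), Rel-null lung (4 libraries, 7 to 10; genotype Rel -/-, mice lacking the NF-kappaB subunit c-Rel), wild-type skin (2 libraries, 11 and 22) and Rel-null skin (3 libraries, 18 to 20). Whether each library is an animal of its own is not stated, and p-values then reflect only how these libraries vary, which may be technical.

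TGF-beta receptors phosphorylate the receptor-regulated SMADs, Smad2 and Smad3, which join the common SMAD, Smad4, and enter the nucleus to switch genes on or off. The signal also switches on its own brakes. Smad7 and Smad6 are inhibitory SMADs that block receptors of the TGF-beta and bone morphogenetic protein (BMP) branches, Ski and Skil (SnoN) hold SMAD complexes in a repressive state, Tgif1 recruits repressors to them, Pmepa1 keeps receptor-regulated SMADs from the receptor, and Bambi is a receptor without a kinase. In fibroblasts this pathway is known as the main inducer of collagen production and of the myofibroblast state.

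Some libraries stood apart or went against their labels. Totals ran from 12780350 to 30987933 counts, except for wild-type skin 22 with 2663437. Expressed genes at 0 counts were most frequent in the library Rel-null lung 7 (11.5% of them), then wild-type skin 11 (8.22%), wild-type lung 4 (5.78%) and Rel-null skin 18 (3.37%), with no more than 0.728% in any other library. These 4 are called the libraries with gaps. Rel itself, in CPM (counts scaled to the effective library total), read 0.0607 to 4.34 among Rel-null lung libraries and 1.05 to 16.8 among wild-type ones. In skin, library 18, labelled Rel-null, read 0.0334 CPM, while 19 and 20, also labelled Rel-null, read 9.08 and 8.72, close to the 11.4 and 9.28 CPM of wild-type skin. The label of those 2 libraries is not borne out by Rel, and Rel-null skin below means libraries so labelled. The lowest Rel values were in libraries with gaps: Rel-null skin 18, Rel-null lung 7 (0.0607 CPM) and wild-type lung 4 (1.05). Wild-type skin 11, also with gaps, read 11.4 CPM. The part of the gaps in these Rel values was not tested. Xist, expressed from an inactive X, was at 64.5 CPM for wild-type lung 1 and 732 for wild-type skin 22, and at most 0.577 elsewhere, although the mice are described as male. Rel-null lung 10 carries a treatment label that names skin, and was kept with lung as titled. The fits were repeated without these libraries. All 9 fibroblast markers were read in every group, with summed levels of 23600 to 157000 CPM over the lung libraries and 11100 to 33400 over the skin libraries.

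Promoter windows from RefSeq (GRCm38.p6) were searched for 4 of the 10 genes, Ski, Smad3, Smad6 and Tgif1. Smad2, Smad4, Smad7 and Bambi were left out of this search, so it says nothing about their windows. The 250 bases before the start of Smad6 and of its neighbour Smad3 are shown because skin and lung cultures differed in opposite directions in the fitted values of these 2 genes, and the most upstream of the Tgif1 starts because it holds a match. The letters searched, on both strands, were CAGAC, the core of the SMAD-binding box, in capitals below, and the kappaB consensus, to which c-Rel and its relatives bind. No window printed here holds both patterns, but a Tgif1 window that is not printed does.
Smad6 (chr9:64022060-64022309, minus strand): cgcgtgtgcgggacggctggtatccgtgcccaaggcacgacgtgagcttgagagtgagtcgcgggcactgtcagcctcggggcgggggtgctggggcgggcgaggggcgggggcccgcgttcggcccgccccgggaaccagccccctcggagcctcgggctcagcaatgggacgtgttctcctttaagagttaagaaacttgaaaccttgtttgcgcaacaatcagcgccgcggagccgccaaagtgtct
Smad3 (chr9:63757995-63758244, minus strand): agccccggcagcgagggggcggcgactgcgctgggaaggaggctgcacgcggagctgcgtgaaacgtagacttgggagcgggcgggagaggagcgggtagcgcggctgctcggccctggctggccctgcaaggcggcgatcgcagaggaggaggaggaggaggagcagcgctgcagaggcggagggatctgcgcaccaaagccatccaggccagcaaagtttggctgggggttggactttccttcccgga
Tgif1 (chr17:70853533-70853782, minus strand): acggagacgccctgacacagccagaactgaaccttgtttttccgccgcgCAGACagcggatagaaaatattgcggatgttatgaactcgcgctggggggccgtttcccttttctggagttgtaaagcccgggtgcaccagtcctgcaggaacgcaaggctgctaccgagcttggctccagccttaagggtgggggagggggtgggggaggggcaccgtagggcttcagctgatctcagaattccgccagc
The windows of Smad6 and Smad3 hold neither pattern, and the Tgif1 window holds CAGAC once. G and C make up 66.8%, 69.2% and 59.6% of the bases. Of 32851 RefSeq promoter windows of this length, 42.2% hold CAGAC and 7.25% the kappaB consensus. Of the 5 Tgif1 starts, 3 have CAGAC in their window. The window at chr17:70849791-70850040, 1 of these 3, also has 2 matches to the kappaB consensus. A match in letters describes the window and is not evidence of binding.

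In the mouse genome (GRCm38, GENCODE M21) the 10 genes lie on 6 chromosomes. Smad3 (ENSMUSG00000032402, chromosome 9, 63646767-63757994) and Smad6 (ENSMUSG00000036867, chromosome 9, 63953076-64022059) are neighbours on the minus strand with 195081 bases between them. Smad4 (chromosome 18, 73639009-73703780, minus strand), Smad7 (75367529-75395935, plus strand) and Smad2 (76241580-76310963, plus strand) follow each other on chromosome 18, where Bambi (3507923-3516404) also lies. Pmepa1 is on chromosome 2 (173224458-173276533), Skil on chromosome 3 (31095058-31122577), Ski on chromosome 4 (155154075-155222592) and Tgif1 on chromosome 17 (70844205-70853546). The annotation places 1 other gene within these spans, a processed pseudogene on the opposite strand of Smad4 that was not in the count table.

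The 10 genes differed widely in level. Per exon length (RPKM, which is CPM divided by the merged exon length in kilobases), the mean over the 14 libraries fell from 63.7 for Pmepa1 through 36.3 for Ski, 21.3 for Smad4, 11.5 for Smad3, 11.1 for Smad7, 8.70 for Smad6, 7.99 for Tgif1, 7.87 for Skil and 4.08 for Smad2 to 3.58 for Bambi. Pmepa1 and Ski, a feedback protein and a corepressor, thus stood above every SMAD on this scale. Ranges of neighbours in this order overlapped throughout: Smad3, for example, spanned 0.602 to 20.2 RPKM and Smad7 4.36 to 27.7. Smad6 and Smad3 varied most between libraries, 96.2-fold and 33.5-fold from lowest to highest. Skil, Smad4 and Smad2 varied least, at 2.30-fold, 2.59-fold and 3.00-fold, and the spread of their log2 CPM lay at percentiles 5.43, 6.70 and 5.90 of the genes tested.

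**Figure D1:**
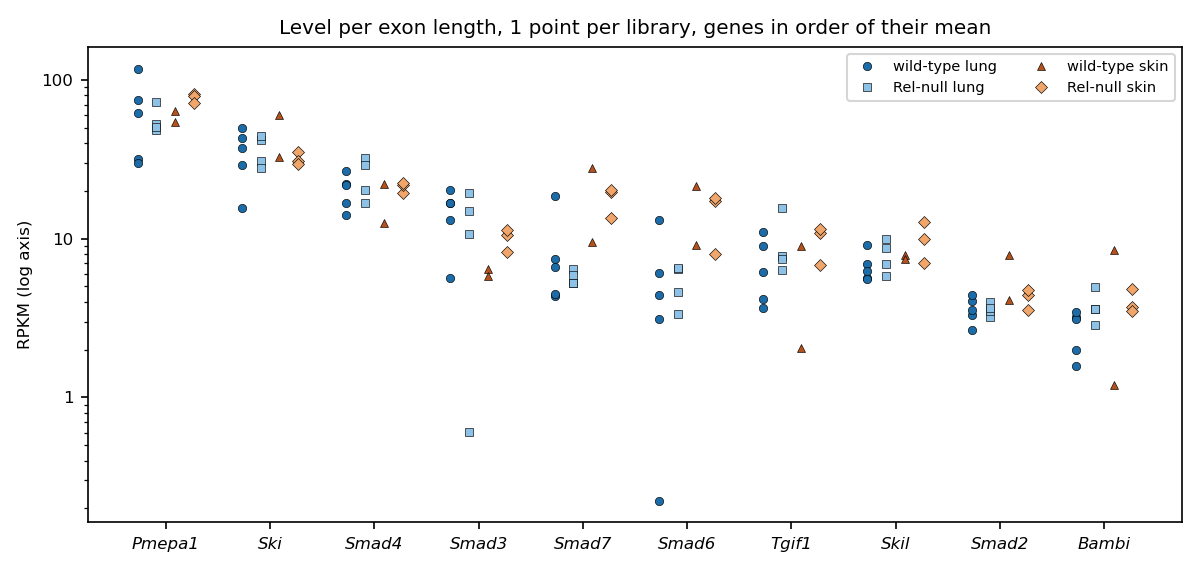
Level of each gene in RPKM (log axis), 1 point per library, with colours and symbols for the 4 groups and genes ordered by their mean. Pmepa1 is highest at a mean of 63.7 RPKM and Bambi lowest at 3.58, and the lone low points are Smad3 in Rel-null lung 7 and Smad6 in wild-type lung 4.

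The extremes of these genes lay mostly in the libraries with gaps. Of the 20 lowest and highest values (2 for each gene), 14 were in those 4 libraries (70.0%), which are 28.6% of the libraries. Over all genes tested the share was 51.3% of 26784 extremes, where extremes tied between libraries were left out. Wild-type skin 11 held the highest value of 5 genes (Smad2, Smad6, Smad7, Ski and Bambi) and the lowest of Smad4 and Tgif1. Wild-type lung 4 held the lowest value of 4 genes (Smad6, Ski, Skil and Pmepa1). The part of the gaps in these values was not tested.

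The inhibitory SMADs had the largest fitted tissue differences in Rel-null cultures and averaged over genotype, while in wild-type cultures Smad3 stood between Smad6 and Smad7 by size. Smad7, which blocks TGF-beta and BMP receptors, read 84.1, 33.9, 19.7, 20.2 and 30.0 CPM in wild-type lung 1, 23, 3, 4 and 5. It read 23.9, 29.0, 23.9 and 26.8 CPM in Rel-null lung 7, 8, 9 and 10, 125 and 42.9 in wild-type skin 11 and 22, and 61.2, 88.6 and 91.6 in Rel-null skin 18, 19 and 20. Every skin library was higher than every Rel-null lung library, and wild-type lung 1 was the only lung library within the skin range. Group means were 37.6 ± 26.7 CPM in wild-type lung (SD, n = 5), 25.9 ± 2.46 in Rel-null lung (n = 4), 84.0 ± 58.2 in wild-type skin (n = 2) and 80.5 ± 16.7 in Rel-null skin (n = 3).

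Smad6, the inhibitory SMAD better known for restraining BMP signals, followed the same order. It read 42.2, 9.95, 19.4, 0.715 and 14.1 CPM in wild-type lung 1, 23, 3, 4 and 5, and 10.7, 20.8, 21 and 14.7 in Rel-null lung 7, 8, 9 and 10. In wild-type skin 11 and 22 it read 68.8 and 29.1 CPM, and in Rel-null skin 18, 19 and 20 it read 25.6, 55.1 and 58.1. Wild-type lung 1 was again the lung library within the skin range, and wild-type lung 4 was far below all others, with 17 counts (exact Poisson 95% interval 0.417 to 1.14 CPM, which covers counting error only). Group means were 17.3 ± 15.5 (SD, n = 5), 16.8 ± 4.99 (n = 4), 48.9 ± 28.0 (n = 2) and 46.3 ± 18.0 CPM (n = 3), in the order wild-type lung, Rel-null lung, wild-type skin, Rel-null skin.

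The tissue comparison asked how cultures from skin and lung differ within a genotype, with edgeR's quasi-likelihood test adjusted over all genes tested. In Rel-null cultures Smad7 was 3.11-fold higher in skin (log2 fold change 1.64 ± 0.48 SE, adjusted p = 0.0614), just short of the threshold of 0.05, and Smad6 2.75-fold (1.46 ± 0.79, adjusted p = 0.343). Among the 10 genes, 0 passed, where 5.05% of all genes did, 1 had an unadjusted p under 0.05 (19.1% of all genes did), and these 2 had groups that did not overlap, both with skin higher (20.1% of all genes did not overlap, 11.6% in that direction). In wild-type cultures the log2 fold changes were 1.17 ± 0.52 for Smad7 (adjusted p = 0.309) and 1.51 ± 0.87 for Smad6 (adjusted p = 0.480). There 0 of 10 genes passed, where 2.97% of all genes did, 0 had groups that did not overlap (17.8% of all genes), and Smad7 and Smad2 were at an unadjusted p under 0.05 (13.2% of all genes). Under some alternatives Smad7 passed in Rel-null cultures, with an adjusted p of 0.0309 without the low-count filter, 0.0170 by DESeq2, 0.00749 with only those 2 groups, 0.0225 without the libraries with gaps and 0.00323 without wild-type lung 1 and wild-type skin 22. It passed too with wild-type lung 1 (0.0140), wild-type lung 4 (0.0480), wild-type skin 11 (0.0375) or wild-type skin 22 (0.0394) alone left out. No wild-type library is among those compared here. Leaving such libraries out, alone or together, changes the shared fit and the genes tested, not the libraries compared. In wild-type cultures Smad7 passed without wild-type lung 1 (1.73 ± 0.41, adjusted p = 0.0264), and was 0.19 ± 0.64 without wild-type skin 11. The Rel-null value was 1.24 ± 0.75 (adjusted p = 0.455) without Rel-null skin 19 and 20. Without the libraries with gaps Smad6 passed in Rel-null cultures (1.64 ± 0.49, adjusted p = 0.0451).

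A comparison of both skin groups with both lung groups, averaged over genotype, was added after the data were seen. In it Smad7 rose in skin, 2.64-fold (log2 fold change 1.40 ± 0.36, adjusted p = 0.0151), and was the single gene of the 10 to pass, where 10.4% of all genes did (4.26% in that direction). With all libraries kept, 0 of the 10 separated the tissues (4.82% of all genes). Smad6 had a value of 1.48 ± 0.59 (adjusted p = 0.119). Wild-type skin 11 and Rel-null skin 19 and 20 decided the Smad7 call: it was 0.92 ± 0.39 (adjusted p = 0.188) without the first and 1.21 ± 0.47 (adjusted p = 0.133) without the other two, and 0.92 ± 0.38 (adjusted p = 0.120) without the libraries with gaps. Leaving out wild-type lung 1 raised it to 1.68 ± 0.27 (adjusted p = 7.41e-04) and brought Smad6 past the threshold (1.82 ± 0.55, adjusted p = 0.0432), as did leaving out wild-type lung 4 for Smad6 (1.35 ± 0.39, adjusted p = 0.0374).

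**Figure D2:**
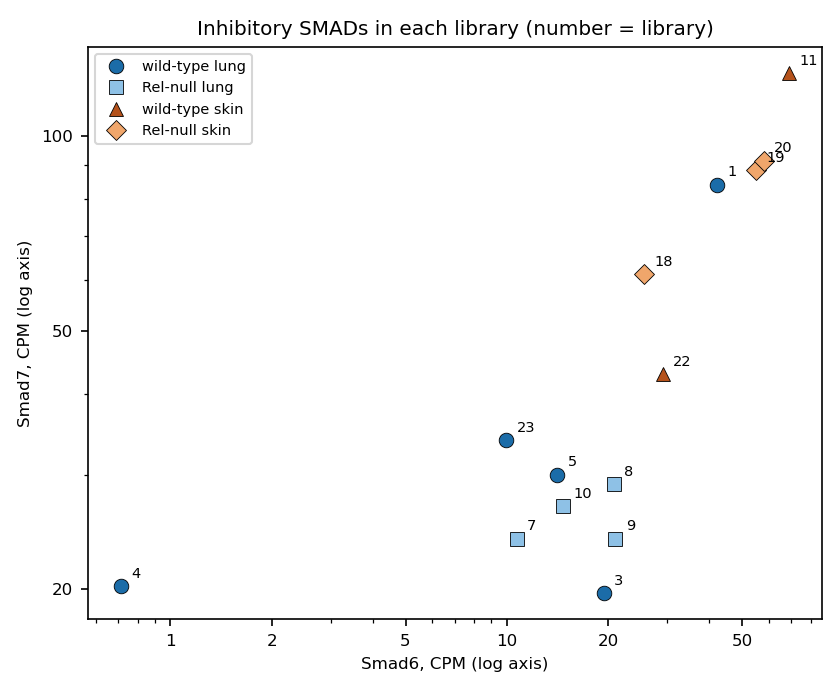
Smad7 against Smad6 in CPM (both axes log), 1 point per library, numbered as in the labels, with colours and symbols for the 4 groups. The 5 skin libraries and wild-type lung 1 lie at 25.6 CPM of Smad6 or higher and 42.9 CPM of Smad7 or higher, and the other 8 lung libraries lie below both values.

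Markers of other cell types moved with tissue. The 15 leukocyte and macrophage markers summed to 6620 to 31000 CPM over the lung libraries and to 48.3 to 196 over the skin libraries, none was at 0 in a whole group, and 14 of 15 passed as lower in skin in each genotype. Skeletal muscle markers summed to 13.6 to 139 (wild type) and 27.8 to 844 CPM (Rel-null) in lung and to 82.9 to 1030 and 555 to 968 in skin, 7 of 10 passed as higher in skin among wild-type cultures and 5 among Rel-null ones, and Myod1 and Ckm were at 0 counts in all lung libraries. Keratinocyte markers summed to 1270 to 3260 CPM in Rel-null skin and to at most 55.8 in the other groups, where 10 of 13 tested markers passed as higher in Rel-null skin than Rel-null lung and 5 of 13 as higher in wild-type skin than wild-type lung, and Krt5, Krt15, Krt6a, Krt16, Dsg3 and Lgals7 were at 0 counts in all lung libraries. The 7 endothelium markers summed to 32.6 to 102 CPM over the lung libraries and 6.57 to 16.5 over the skin libraries, with Emcn and Erg at 0 counts in skin. Mesothelium markers summed to 16.1 to 229 (wild type) and 5.81 to 241 CPM (Rel-null) in lung. In skin they summed to 17.3 to 20.8 and 14.3 to 49.2 CPM. Of these 5 markers, Upk3b, Wt1 and Lrrn4 were at 0 counts in all skin libraries. These 3 passed as lower in skin among Rel-null cultures, and 0 of 5 passed among wild-type ones. The other 2, Msln and Krt19, had higher means in skin in each genotype. Lung epithelium markers summed to 561 to 1050 CPM in Rel-null skin and to at most 192 elsewhere, with the surfactant genes Sftpc, Sftpb and Sftpa1 and the factor Nkx2-1 at 0 counts in skin. The Rel-null skin sum came mostly from Krt8 (mean 305 CPM), Cdh1 (240), Krt18 (164) and Epcam (78.3). Cdh1 and Epcam are also on the keratinocyte list, so the lists are not separate there. The part of these markers in the Smad7 and Smad6 values was not tested. In RNA from mixed cultures, fewer cells of a type and less RNA per cell cannot be told apart. The dermis markers, summed, read 296 to 1810 CPM in skin and 13.5 to 49.1 in lung, and the lung mesenchyme markers 1.91 to 12.2 and 29.7 to 229, which separates the tissues as labelled.

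Among the receptor-regulated SMADs, Smad3 tended the other way, with wide error. It read 93.0, 112, 72.6, 31.2 and 93.9 CPM in wild-type lung 1, 23, 3, 4 and 5, and 3.34, 82.4, 59.1 and 108 in Rel-null lung 7, 8, 9 and 10. Wild-type skin 11 and 22 read 35.7 and 32.3 CPM, and Rel-null skin 18, 19 and 20 read 45.7, 57.9 and 63.4. Wild-type skin was low and narrow, overlapped among wild-type lung libraries by library 4 alone, and Rel-null lung 7 stood far below every other library at 55 counts (95% interval 2.51 to 4.34 CPM). The log2 fold change of skin against lung was -1.24 ± 0.74 in wild type (adjusted p = 0.577) and -0.18 ± 0.67 in Rel-null cultures (adjusted p = 0.950), and -0.71 ± 0.50 averaged over genotype (adjusted p = 0.476). Averaged over genotype, Smad3 passed as lower in skin without Rel-null lung 7 (-0.89 ± 0.27, adjusted p = 0.0472) and without the libraries with gaps (-0.97 ± 0.24, adjusted p = 0.0225).

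Smad2, the partner of Smad3, was steadier. It read 28.9, 35.6, 23.1, 38.7 and 31.1 CPM in wild-type lung 1, 23, 3, 4 and 5, 28.4, 35.1, 30.6 and 32.3 in Rel-null lung 7, 8, 9 and 10, 69.4 and 36.2 in wild-type skin 11 and 22, and 31.3, 39.1 and 41.8 in Rel-null skin 18, 19 and 20. Wild-type skin 11 was high and the other 13 libraries lay between 23.1 and 41.8. In wild-type cultures its log2 fold change of skin against lung was 0.75 ± 0.36 (edgeR adjusted p = 0.378), which DESeq2 called (0.82 ± 0.29, adjusted p = 0.0482). The ratio of Smad2 to Smad3 per exon length was 0.196 to 0.209 in 4 of the 5 wild-type lung libraries and 0.784 in library 4, 0.189 to 0.327 in Rel-null lung 8, 9 and 10 and 5.37 in library 7, 1.23 and 0.706 in wild-type skin, and 0.416 to 0.431 in Rel-null skin. Smad3 thus exceeded Smad2 per length in all libraries but Rel-null lung 7 and wild-type skin 11, both with gaps. Smad4, which both of them need, ranged from 46.4 CPM in wild-type skin 11 to 120 in Rel-null lung 7, and its tissue values were -0.24 ± 0.34 in wild type and -0.22 ± 0.31 in Rel-null cultures.

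The genotype comparisons set libraries labelled Rel-null against wild-type ones, and no member passed in lung or in skin. They compare labels more than Rel levels: Rel-null skin 19 and 20 had Rel near the wild-type level, and wild-type lung 4, at 1.05 CPM of Rel, was below Rel-null lung 8, 9 and 10 at 4.34, 1.44 and 4.03. In lung 0 of the 10 genes passed edgeR's threshold, as did 0% of all genes, and 0 had an unadjusted p under 0.05, against 6.31% of all genes. DESeq2 also called 0 of the 10 in lung, and 0.396% of the genes it gave an adjusted p. The median log2 fold change of the 10 was 0.025, beside -0.080 over all genes tested, with 6 values above and 4 below 0. The groups overlapped for every member, whereas 2.24% of all genes did not overlap. In skin 0 of 10 passed edgeR's threshold, as did 0% of all genes. DESeq2 called 0 of the 10 there, and 1.38% of the genes it gave an adjusted p. By edgeR 0 had an unadjusted p under 0.05, against 6.24%, and the median was 0.12 beside 0.012 over all genes. In skin the keratinocyte markers also moved with genotype, at a summed 27.8 to 55.8 CPM in wild type and 1270 to 3260 in Rel-null libraries. By edgeR 0 of the 13 tested passed, and their part in the skin values was not tested. In lung 13 of 15 leukocyte and macrophage markers had higher fitted values in Rel-null (median log2 fold change 0.75). There 8 of 9 fibroblast markers had lower ones (median -0.63), and 0 passed in either list. Their part in the lung values was not tested.

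In lung the bounds on a genotype difference were narrowest for the genes with the least spread. The approximate 95% interval of the log2 fold change was -0.30 to 0.76 for Skil (value 0.23), -0.29 to 0.85 for Smad4 (0.28), -0.61 to 0.62 for Smad2 (0.0050) and -0.60 to 0.69 for Ski (0.046). It was wide for Smad6, at -1.51 to 1.44, and for Smad3, at -1.60 to 0.91, where Rel-null lung 7 lay at 3.34 CPM. Smad7 had the largest fitted value in lung by size, -0.54 ± 0.42 (adjusted p = 0.947), and it rested on wild-type lung 1, without which the value was 0.014 ± 0.33.

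Among the feedback proteins, Pmepa1, which is induced by TGF-beta and binds receptor-regulated SMADs, had the highest level of the 10 genes. It read 581, 157, 303, 148 and 367 CPM in wild-type lung 1, 23, 3, 4 and 5, 259, 237, 250 and 358 in Rel-null lung 7, 8, 9 and 10, 265 and 315 in wild-type skin 11 and 22, and 403, 392 and 350 in Rel-null skin 18, 19 and 20. Wild-type lung held both the highest and the lowest values and covered every other group. Between Rel-null and wild-type labels its log2 fold change was -0.17 ± 0.34 in lung and 0.40 ± 0.46 in skin, adjusted p 1.00 and 0.940, where all 3 Rel-null libraries lay above both wild-type ones. Such separation with Rel-null higher was seen for Pmepa1 and Smad3 among the 10, and for 14.8% of all genes, with 25.1% not overlapping in either direction.

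Bambi, the kinase-free receptor, was low throughout, at 8.04 to 17.5 CPM in wild-type lung, 14.4 to 25.3 in Rel-null lung and 17.7 to 24.4 in Rel-null skin. Its 2 wild-type skin libraries read 43.2 and 6.08 CPM, the highest and the lowest of all, the latter from 19 counts (95% interval 3.66 to 9.50 CPM). Fitted values for Bambi that involve wild-type skin therefore turned with those libraries: the genotype value in skin was -0.29 ± 0.71, but 1.78 ± 0.77 without library 11 and -1.09 without library 22.

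The corepressors passed in no comparison, with intervals that were wide for Tgif1. Skil (SnoN), itself a TGF-beta target, read 67.1, 88.0, 55.1, 54.1 and 60.9 CPM in wild-type lung 1, 23, 3, 4 and 5, 96.7, 85.0, 56.5 and 67.1 in Rel-null lung 7, 8, 9 and 10, 76.7 and 72.3 in wild-type skin 11 and 22, and 67.8, 97.1 and 124 in Rel-null skin 18, 19 and 20. Rel-null means were the higher in both tissues, 76.3 ± 18.0 (n = 4) against 65.0 ± 13.8 (SD, n = 5) in lung and 96.4 ± 28.3 (n = 3) against 74.5 ± 3.08 (n = 2) in skin, with overlap in each. The log2 fold changes of Skil were 0.23 ± 0.25 and 0.37 ± 0.34 for lung and skin, adjusted p 1.00 and 0.904, and the skin value was -0.15 without Rel-null skin 19 and 20. Ski, its relative, ranged from 87.2 CPM in wild-type lung 4 to 337 in wild-type skin 11, with genotype values of 0.046 ± 0.30 in lung and -0.55 ± 0.41 in skin, the latter 0.0057 without wild-type skin 11. Ski exceeded Skil per exon length in every library, the ratio of Skil to Ski running from 0.131 to 0.437.

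Tgif1, a homeodomain protein that brings repressors to SMAD complexes, read 20.6 to 62.7 CPM in wild-type lung, 35.9 to 88.0 in Rel-null lung and 38.4 to 65.0 in Rel-null skin, and 11.6 and 50.9 CPM in wild-type skin 11 and 22. Its genotype values were 0.45 ± 0.45 in lung and 0.83 ± 0.61 in skin (adjusted p = 1.00 and 0.851). Both tissues had higher Rel-null means, and in both the groups overlapped.

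**Figure D3:**
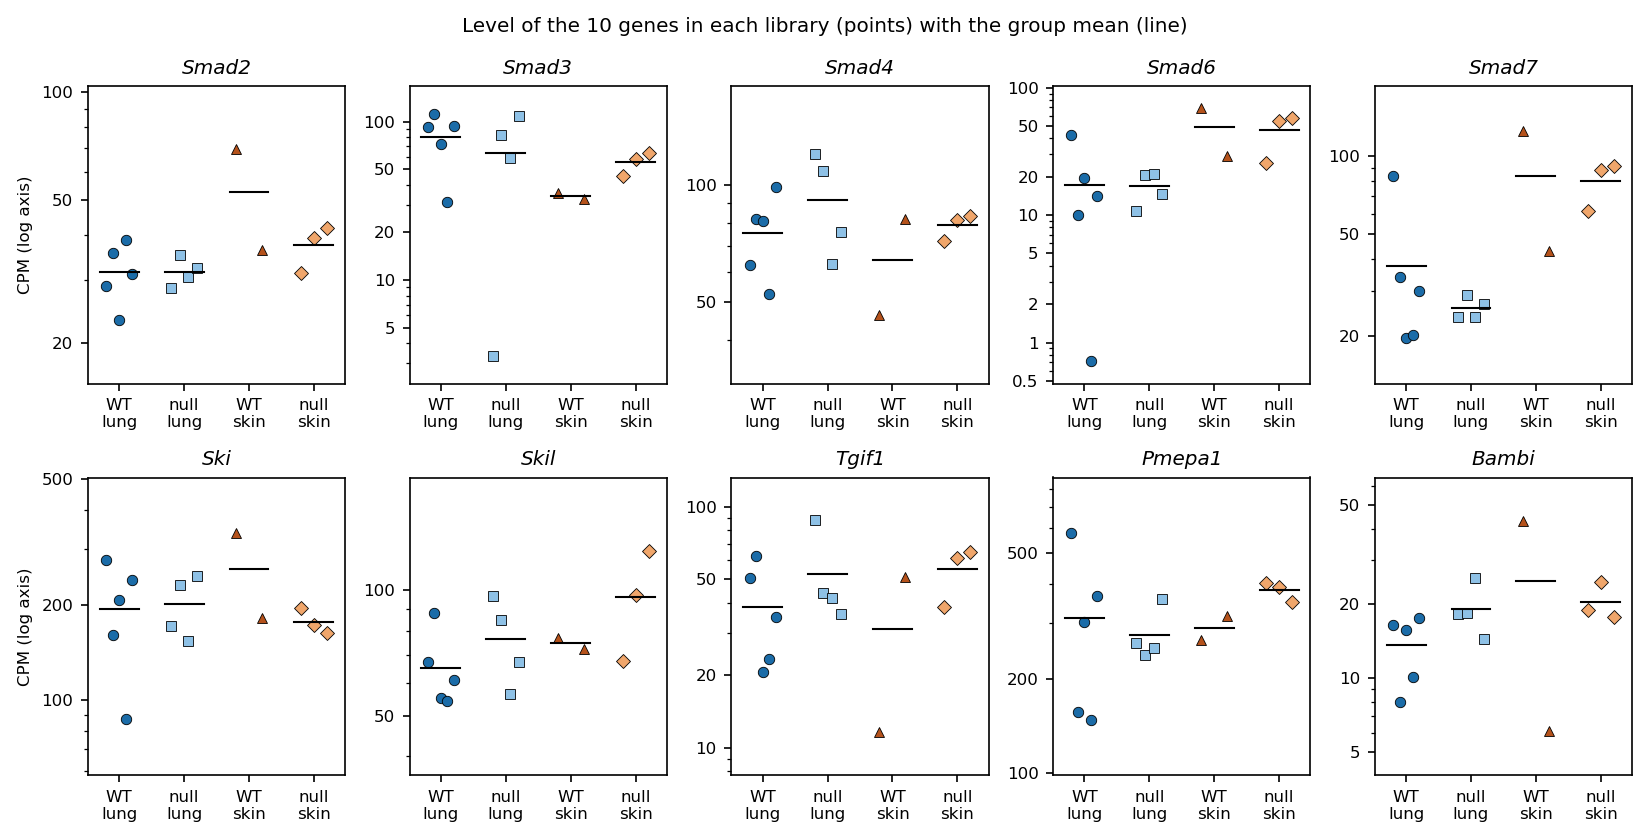
CPM of each of the 10 genes (log axes), 1 point per library and a line at the group mean, for wild-type (WT) and Rel-null (null) lung and skin. Smad6 and Smad7 lie higher in the skin groups, at means of 46.3 to 84.0 CPM against 16.8 to 37.6 in lung, while genotypes overlap in lung for every gene.

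The difference between the genotype effects in skin and in lung was tested as an interaction, and 0 of 10 genes passed, as did 0% of all genes by edgeR. By that test 0 had an unadjusted p under 0.05 (4.67% of all genes). DESeq2 called 0 of the 10, and 0.646% of the genes it gave an adjusted p. The largest value was that of Smad3, 1.06 ± 1.00 (adjusted p = 1.00). For Smad7 it was 0.47 ± 0.71. The tissue difference of Smad7 was thus not shown to depend on genotype.

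**Figure D4:**
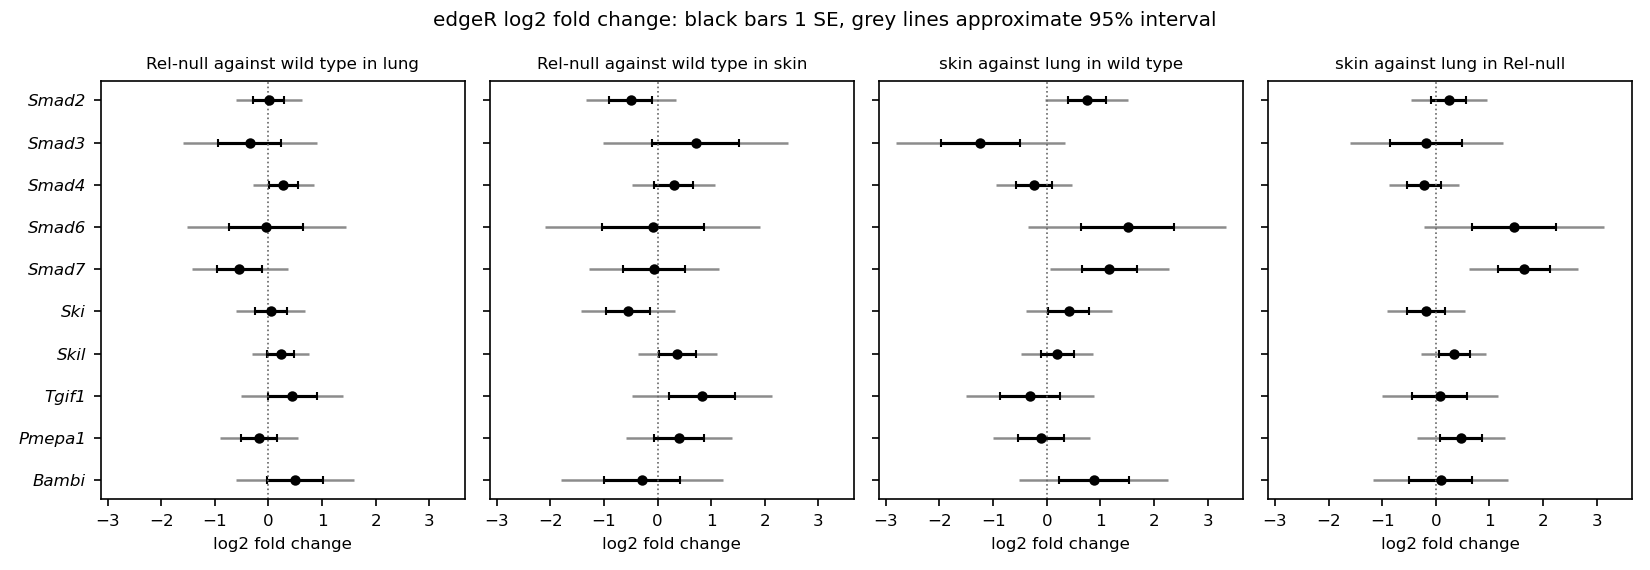
Log2 fold change of each gene (horizontal axis) in the 4 comparisons, with black bars for 1 SE and grey lines for the approximate 95% interval. Genotype values of all 10 genes have intervals that include 0, and Smad7 is the gene whose interval stays above 0 in both tissue comparisons, from 0.053 in wild type and from 0.62 in Rel-null cultures. The intervals are not adjusted for the number of genes, and by edgeR Smad7 passed in neither (adjusted p = 0.309 and 0.0614).

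Other genes of the pathway gave a background to these values. Between genotypes in lung, 0 of 3 BMP-branch SMADs, 0 of 19 tested SMAD cofactors and modifying enzymes, 0 of 9 TGF-beta ligands and receptors, 0 of 18 TGF-beta target genes and 0 of 6 BMP target genes passed, with medians of 0.12, -0.11, 0.012, -0.19 and 0.31 on the log2 scale. In lung the smallest unadjusted p-values were those of the ubiquitin ligase Nedd4l (-1.33 ± 0.42, adjusted p = 0.781), and of the targets Ltbp2, a matrix protein (-1.47 ± 0.50, adjusted p = 0.781), and Fn1, fibronectin (-1.35 ± 0.52, adjusted p = 0.781). In skin 0 passed in each of these lists, with medians of -0.47, -0.25, -0.36, -0.12 and 0.40, and Fn1 had a value of -1.85 ± 0.71 (adjusted p = 0.718).

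Between tissues, averaged over genotype (the comparison added after the data were seen), 0 of 3 BMP-branch SMADs passed, with a median of -0.59. Of 19 cofactors and enzymes, 2 passed as higher in skin and 1 as lower. Smurf1, a ubiquitin ligase that Smad7 brings to receptors, was higher (1.06 ± 0.31, adjusted p = 0.0368), as was the chromatin remodeller Smarca4 (0.82 ± 0.20, adjusted p = 0.0111), and the ligase Wwp1 was lower (-1.90 ± 0.39, adjusted p = 0.00927). Of 9 ligands and receptors, 2 passed as lower in skin, the ligand Tgfb3 (-1.76 ± 0.42, adjusted p = 0.0221) and the receptor Tgfbr2 (-1.41 ± 0.31, adjusted p = 0.0124). Of 18 TGF-beta targets, 3 passed as higher, Postn (periostin, 4.33 ± 0.54, adjusted p = 8.10e-05), Ltbp2 (2.19 ± 0.42, adjusted p = 0.00223) and the cytokine Il11 (4.69 ± 1.06, adjusted p = 0.0112), and 1 as lower, elastin, Eln (-8.87 ± 1.06, adjusted p = 0.00151), whose group means were 809 and 348 CPM in lung and 1.66 and 1.27 in skin. Of 6 BMP targets, 2 passed as higher, Id1 (2.07 ± 0.55, adjusted p = 0.0194) and Id4 (2.38 ± 0.37, adjusted p = 3.60e-04). Over all genes 4.26% passed as higher and 6.17% as lower, with a median of -0.072. The medians were 0.26 for cofactors and enzymes, -0.27 for ligands and receptors, -0.45 for TGF-beta targets and -0.39 for BMP targets. The part of the cell type markers in these values was not tested.

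Levels of some members went together across the 14 libraries. On log2 CPM the highest Pearson r between members was 0.73 for Smad6 and Smad7 (0.52 over the 9 lung libraries), followed by 0.70 for Smad6 and Ski (0.88 in lung) and 0.67 for Smad6 and Pmepa1 (0.72 in lung). Smad2 and Smad4 gave the lowest, -0.50 (-0.22 in lung). Within lung Skil and Tgif1 had an r of 0.86 (0.58 over all libraries). These values describe libraries that share a tissue, a genotype and, for 4 of them, gaps. Among 10764 other protein-coding genes with a mean of at least 5 CPM, the gene most like each member over the 14 libraries was Prrx2 for Smad6 (r 0.97), Irs2 for Smad3 (0.96), Atg2a for Ski (0.93), Eef1akmt2 for Tgif1 (0.93), Cxcl3 for Smad7 (0.92), Asna1 for Bambi (0.92), Snd1 for Pmepa1 (0.91), Scd1 for Smad2 (0.87), Cog5 for Smad4 (0.85) and Crk for Skil (0.84). Each is the highest of many correlations and is given as a description.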

How the data were processed

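The deposited table holds the authors' raw counts, 48795 Ensembl genes by 14 libraries, and a column was matched to its sample by the number in its name. According to the submitters' processing notes the tools were STAR 2.4.2a, Trimmomatic 0.33 and FastQC 0.11.2, and the build GRCm38. How reads were counted, with which annotation and whether by strand, is not given in the sources used here. Symbols, coordinates and exon lengths are those of GENCODE M21, which held 48435 of the IDs. The test was edgeR 4.0.16 under R 4.3.3. It used TMM scaling, the filterByExpr defaults (count 10, total 15), 1 quasi-likelihood model of 4 group means over the 14 libraries, and Benjamini-Hochberg adjustment over 16408 genes. CPM uses TMM-scaled totals. SE and approximate 95% intervals use the fit's working weights. Wild-type skin 22, the shallowest library, has the largest counting error. Members and lists were chosen with earlier results of these data known. All members are described; from the pathway lists, genes past the threshold or otherwise some of those with the smallest p are named. Alternatives were RLE scaling, no filter, DESeq2 1.42.0, only the groups compared, and leaving out libraries singly or in sets. The code was tested on simulated data.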

Additional observations from a re-analysis of the deposited data

Results flagged for a closer look

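In 20 sets of a gene and a lung group, 2 values stood apart from the rest of their group by Dixon's ratio on CPM. This ratio is the gap to the nearest value divided by the range. Chance gives about 1 set in 20 only if sets are independent and values normally distributed, and these sets share libraries. Not flagged on this scale were the low values of Smad3 in Rel-null lung 7 (ratio 0.533) and Smad6 in wild-type lung 4 (0.223). Smad7 in wild-type lung 1 was 84.1 CPM, against 19.7 to 33.9 CPM in the other 4 wild-type lung libraries; Xist was also read in this library. Tgif1 in Rel-null lung 7 was 88.0 CPM, against 35.9 to 43.8 CPM in Rel-null lung 8, 9 and 10; 11.5% of expressed genes were at 0 counts in this library.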

How the results depend on the processing

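A sign change was counted only where a value exceeded its SE in either fit. RLE factors changed no call of the 10 genes. No alternative called a member between genotypes in lung or skin or for the difference of those effects. Calls in wild-type tissue were 0, and 1 without wild-type lung 1 and wild-type skin 22 (Smad7), 1 by DESeq2 (Smad2), and 0 to 1 when each library was left out. In Rel-null tissue they were 0, and 1 without the low-count filter, with only the groups compared, by DESeq2 and without wild-type lung 1 and wild-type skin 22 (Smad7 each time), 2 without the 4 libraries with gaps (Smad6 and Smad7), and 0 to 1 leaving out single libraries. Averaged over genotype the count was 1, but 0 without Rel-null skin 19 and 20, 2 without wild-type lung 1 and wild-type skin 22 (Smad6 and Smad7), 2 by DESeq2 (Smad2 and Smad7) and 0 to 2 leaving out single libraries; without the libraries with gaps it was 1, but Smad3 in place of Smad7. Without those libraries the log2 values that turned were Smad2 0.24, Smad6 1.04, Smad7 1.15 and Bambi 1.87 between genotypes in skin, Smad2 0.086, Smad6 1.2, Ski 0.021 and Bambi 1.42 for the difference of effects, Ski -0.30 and Bambi -1.25 between wild-type tissues, and Smad4 0.029, Ski -0.29, Tgif1 0.48 and Bambi -0.54 averaged over genotype. Without wild-type lung 1 and wild-type skin 22, Smad7 was 0.0083 between genotypes in lung and -0.61 for the difference. Without Rel-null skin 19 and 20, Skil was -0.15 between genotypes in skin and -0.17 between Rel-null tissues. Leaving out single libraries gave ranges across 0 for Smad7 in lung (-0.70 to 0.014), for Smad2 (-0.90 to 0.096), Smad7 (-0.64 to 0.96), Ski (-0.93 to 0.0057) and Bambi (-1.09 to 1.78) in skin, for Smad2 (-0.90 to 0.078) and Bambi (-1.59 to 1.27) in the difference, for Ski (-0.11 to 0.79) and Bambi (-1.17 to 1.68) between wild-type tissues, and for Bambi (-0.53 to 0.88) averaged over genotype. The ends in skin came from wild-type skin 11 and 22, and otherwise the cause was not tested. Over all genes, calls ranged from 0 to 65 in lung (0 as reported), 0 to 439 in skin (0), 0 to 370 for the difference (0), 258 to 1314 (487) and 409 to 2171 (829) between wild-type and Rel-null tissues, and 1011 to 2719 (1711) averaged over genotype. DESeq2 moved the median of all genes averaged over genotype from -0.072 to 0.15, and leaving out wild-type skin 22 moved it to -0.41. No paired analysis was possible because the groups share no replicate number. Wild-type skin, with 2 libraries of which 1 has 2663437 counts and the other gaps, limits every comparison with it.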
